A study of Homo sapiens with 12 samples.

Results

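The genes examined were the CDK inhibitors, chosen by gene symbol: CDKN1A, CDKN1B, CDKN1C, CDKN2C, CDKN2D and CDKN3. They were chosen with earlier results of these data known. All 6 were among the 14828 genes of the deposited table, and all 6 passed the filter on low values that left 14624 genes for testing. Expression was measured by RNA-seq in 22Rv1, a human prostate carcinoma cell line, transduced with lentivirus carrying a doxycycline-inducible (pTRIPZ Tet-On) vector and selected with puromycin. One group carried a nontargeting shRNA (shNT), and 2 groups carried independent shRNAs against CENPA, the histone H3 variant that marks the centromere (shCENPA1 and shCENPA2). All 3 groups received doxycycline at 2 µg/ml for 72 h, so that shNT was treated with the drug as well and no untreated cells enter the comparisons. Each group held 2 libraries, and lanes 7 and 8 of a library were averaged. The labels do not say whether the libraries came from separate cultures, so the p-values measure the spread between libraries only.

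CDK inhibitors hold back the cyclin-dependent kinases that drive the cell cycle. The CIP/KIP proteins p21 (CDKN1A), p27 (CDKN1B) and p57 (CDKN1C) bind assembled complexes of a cyclin and its kinase. The INK4 proteins examined, p18 (CDKN2C) and p19 (CDKN2D), bind the monomeric kinases CDK4 and CDK6 and keep D-type cyclins away. CDKN3, also called KAP, carries the family's name but works differently, as a dual-specificity phosphatase that removes the activating phosphate from CDK2, and its mRNA is known to vary with the cell cycle. p21 is a classical p53 target, p27 is controlled largely through protein degradation, and CDKN1C lies in an imprinted cluster on chromosome 11p15.

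None of the 6 mRNAs examined passed as higher after depletion of CENPA with either shRNA. Other CDK inhibitor genes were not examined. CDKN3 fell most, to 7.06 RPKM with shCENPA1 and 6.17 with shCENPA2 from 17.7 RPKM in shNT (n = 2 libraries each). CDKN2C fell modestly with both shRNAs. CDKN1A passed the test only in the comparison of shCENPA1 with shNT and CDKN1C only in that of shCENPA2 with shNT, while neither gene differed between the shRNAs at the threshold. CDKN1B and CDKN2D did not pass with either shRNA.

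The regions around the transcription starts of 3 of these genes are printed here, since CDKN3 and CDKN2C were the genes that fell with both shRNAs and CDKN1B was the most abundant and did not pass. They are RefSeq sequences on GRCh38.p14, 5′ to 3′ on the gene's strand, from 250 bases before the start to 50 bases after it. Capitals mark matches on either strand to the cell cycle homology region CHR (TTTGAA), the CCAAT box (CCAAT) and E2F sites of the forms TTCCCGC and TTGGCGC. CDKN3 is shown at chr14:54396757-54397056 (plus strand), CDKN2C at chr1:50968456-50968755 (plus strand) and CDKN1B at chr12:12717118-12717417 (plus strand). CDKN2C has 3 listed starts, and the second was chosen for printing after its letters were seen.
CDKN3: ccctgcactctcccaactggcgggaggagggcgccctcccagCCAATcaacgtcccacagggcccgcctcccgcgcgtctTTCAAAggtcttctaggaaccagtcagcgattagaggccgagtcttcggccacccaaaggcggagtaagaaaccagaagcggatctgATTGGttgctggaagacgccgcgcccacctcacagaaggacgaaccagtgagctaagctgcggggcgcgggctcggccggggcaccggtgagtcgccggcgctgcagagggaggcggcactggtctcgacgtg
CDKN2C, second start: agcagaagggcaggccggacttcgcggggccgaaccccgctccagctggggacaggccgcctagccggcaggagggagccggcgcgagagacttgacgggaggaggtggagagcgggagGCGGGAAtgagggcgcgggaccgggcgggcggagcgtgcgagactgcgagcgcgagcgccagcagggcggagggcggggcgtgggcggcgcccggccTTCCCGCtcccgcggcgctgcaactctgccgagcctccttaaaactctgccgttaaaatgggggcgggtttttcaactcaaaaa
CDKN1B: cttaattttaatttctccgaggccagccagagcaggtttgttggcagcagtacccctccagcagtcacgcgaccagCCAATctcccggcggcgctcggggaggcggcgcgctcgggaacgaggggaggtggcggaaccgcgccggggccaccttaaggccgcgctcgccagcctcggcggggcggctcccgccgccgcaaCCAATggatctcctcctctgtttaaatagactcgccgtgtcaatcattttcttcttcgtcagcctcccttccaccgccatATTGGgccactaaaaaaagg

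The CDKN3 window held a CHR match on the opposite strand, 170 bases before the start, between a CCAAT box 208 bases before and a CCAAT box on the opposite strand 83 bases before. All distances are from the RefSeq starts. The GENCODE start of CDKN3, chr14:54396849, lies inside this window and upstream of the RefSeq start, so distances from it would differ. The second CDKN2C start held a TTCCCGC match 34 bases before and one on the opposite strand 131 bases before. CDKN1B held CCAAT boxes 174 and 50 bases before the start and one on the opposite strand 30 bases after it. Of the other starts, the third of CDKN2C held a CCAAT box 95 bases before and CDKN2D held one 234 bases before, whereas CDKN1A and the first CDKN2C start held no match. Among 35116 promoter windows of the same length, 15.2% held TTTGAA, 34.6% CCAAT, 6.55% TTCCCGC and 3.04% TTGGCGC. These are matches of letters and not sites of binding. RefSeq entries were matched for 5 of the 6 genes, with 7 starts in all.

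**Figure D1:**
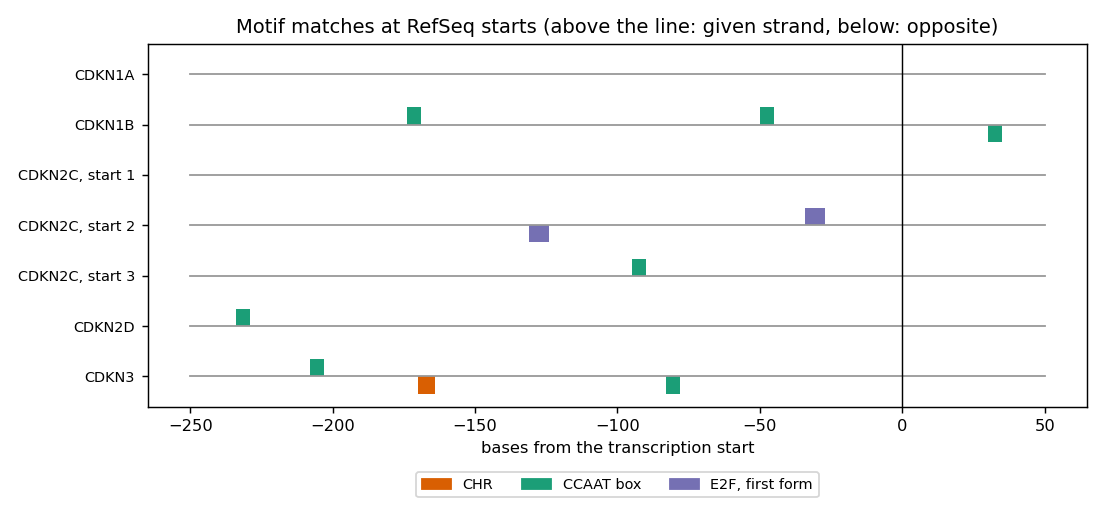
Motif matches from 250 bases before to 50 bases after each RefSeq transcription start of 5 CDK inhibitor genes. The horizontal axis gives bases from the start, and boxes above or below a line are matches on the gene's strand or the opposite strand. The CHR match lies 170 bases before the CDKN3 start and is the only one among the 7 windows.

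Levels are given as log2 RPKM, that is, read counts per gene corrected for gene length and sequencing depth, so that genes can be set beside each other. Fold changes are differences of group means of log2 RPKM, tested with limma over all 14624 genes in one fit of the 6 libraries, and a gene passed when its Benjamini-Hochberg adjusted p was under 0.05. Reads recovered from the deposited values summed to between 79172294 and 133074655 per library. A chi-square per gene of 1 would be counting error alone, and it was 1.24 to 1.31 between lanes and 26.5 to 80.1 between libraries of a group. CENPA itself, the target of the shRNAs, had 2.46 and 2.18 log2 RPKM in shNT, 0.50 and 0.58 in shCENPA1 and -0.47 and -0.41 in shCENPA2, and no group overlapped another. Of the markers of luminal prostate epithelium 9 of 9 were in the table, with a summed level of 793 to 873 RPKM per library. For basal epithelium, leukocytes and endothelium, no listed marker was in the table, and for fibroblasts 2 of 4 were (COL1A1 and DCN, 1.09 to 1.63 RPKM summed), at 1.09 to 1.2 in shNT, 1.5 to 1.6 with shCENPA1 and 1.3 to 1.63 with shCENPA2. The part of that difference in the results was not tested. In bulk RNA, fewer cells in a given phase of the cycle cannot be told apart from less RNA per cell.

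In the shNT libraries the order of levels was CDKN1B, CDKN1A, CDKN3, CDKN2D, CDKN2C and CDKN1C. CDKN1B averaged 6.87 ± 0.09 log2 RPKM (SD, n = 2), or 117 RPKM, and CDKN1A averaged 6.28 ± 0.09, or 77.7 RPKM. The next 3 genes lay close together, with CDKN3 at 4.15 ± 0.02, CDKN2D at 3.67 ± 0.08 and CDKN2C at 3.36 ± 0.03. CDKN1C, at 0.02 ± 0.21 log2 RPKM or 1.01 RPKM, was 10.2-fold below CDKN2C. In each shNT library each gene was above its next lower neighbour. With both shRNAs CDKN3 moved from the third to the fifth place. CDKN2C then lay above CDKN3 by 0.18 on the log2 scale with shCENPA2, beyond their SDs of 0.05 and 0.08. With shCENPA1 it lay above by 0.10, which did not exceed the SD of CDKN3, 0.11. The other neighbours differed by more than their SDs in all 3 groups.

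**Figure D2:**
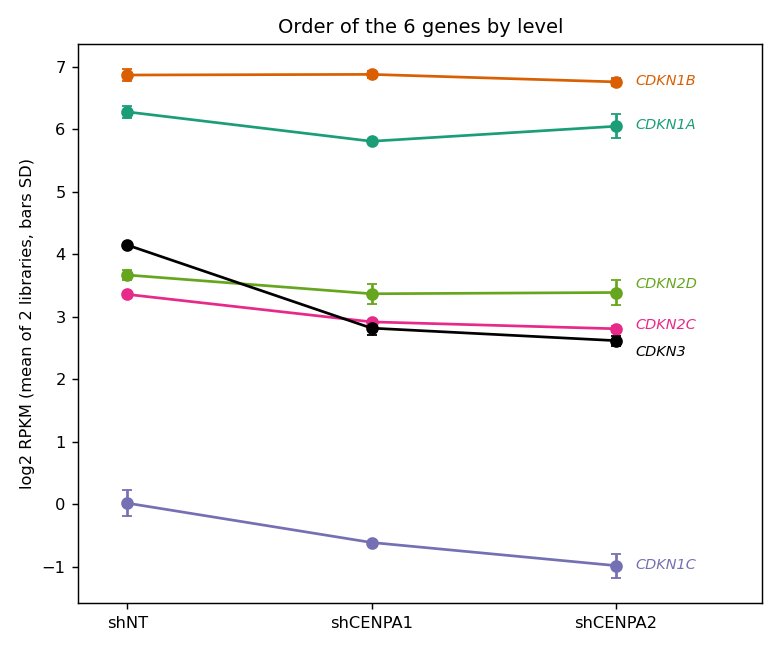
Mean log2 RPKM of the 6 genes in shNT, shCENPA1 and shCENPA2, with bars for the SD of 2 libraries per group. The line of CDKN3 crosses those of CDKN2D and CDKN2C between shNT and shCENPA1, and the order of the other 5 genes is the same in each group.

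CDKN1A, which encodes p21, was at 6.35 and 6.21 log2 RPKM in shNT, 5.80 and 5.82 with shCENPA1 and 6.19 and 5.91 with shCENPA2. The libraries of both shRNAs lay below those of shNT, though the higher shCENPA2 library came within 0.02 of the lower shNT library. CDKN1A fell by 0.47 with shCENPA1 (SE 0.11, 95% confidence interval -0.72 to -0.23, limma adjusted p = 0.0307), or 27.9%. With shCENPA2 the difference was -0.23 (SE 0.11, interval -0.47 to 0.02, limma adjusted p = 0.185). The difference between the shRNAs themselves, 0.25 (interval 0.00 to 0.49), had a limma adjusted p of 0.374. Leaving out 1 library leaves its group with a single library, whose spread is then taken from the other groups. In the 4 fits without an shNT or shCENPA1 library the shCENPA1 difference stayed between -0.54 and -0.41 and did not pass, and 395 to 608 of all genes passed rather than 1044. The limma adjusted p was 0.216 without shNT replicate 1, 0.0916 without shNT replicate 2, 0.112 without shCENPA1 replicate 1 and 0.16 without shCENPA1 replicate 2. The reads behind CDKN1A numbered 13615 to 26830 per library, and both lanes of a library differed by at most 0.05.

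CDKN1B encodes p27, whose loss at the protein level is a known feature of prostate cancer. It was at 6.93 and 6.81 log2 RPKM in shNT, 6.84 and 6.91 with shCENPA1 and 6.72 and 6.81 with shCENPA2. The shCENPA1 libraries overlapped those of shNT, and the higher shCENPA2 library was level with the lower shNT library to 2 decimals. The difference was 0.00 with shCENPA1 (SE 0.09, interval -0.21 to 0.22, limma adjusted p = 0.992) and -0.11 with shCENPA2 (SE 0.09, interval -0.32 to 0.10, limma adjusted p = 0.464). The intervals thus span changes of the CDKN1B level from -13.6% to 16.1% with shCENPA1 and from -20.1% to 7.36% with shCENPA2. The gene's span on chromosome 12 overlaps GPR19 on the opposite strand, which was at -1.27 to -0.19 log2 RPKM. The library kit keeps strand, but the strand setting of the counting is not given in the sources used here.

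CDKN1C encodes p57 and was the least abundant of the genes, with 99 to 313 reads per library. Its level was 0.16 and -0.13 log2 RPKM in shNT, -0.61 in both shCENPA1 libraries and -1.11 and -0.85 with shCENPA2. The 3 groups did not overlap. CDKN1C fell with shCENPA2 (log2 fold change -1.0, SE 0.21, interval -1.48 to -0.52, limma adjusted p = 0.0111), or to 0.507 from 1.01 RPKM. With shCENPA1 the difference was -0.63 (SE 0.21, interval -1.11 to -0.14, limma adjusted p = 0.123), and between the shRNAs it was -0.37 (interval -0.85 to 0.11, limma adjusted p = 0.508). With lanes as samples and an estimated correlation between them the call was lost (limma adjusted p = 0.0677), leaving 2 of the 6 genes past the threshold with shCENPA2. Without shNT replicate 1 the shCENPA2 difference was -0.85 with a limma adjusted p of 0.133, and lanes of 1 library differed by up to 0.39. With 1 added to RPKM the shCENPA2 difference was -0.42 (limma adjusted p = 0.00683), since the level of CDKN1C is near 1 RPKM.

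CDKN2C, the gene of p18, was at 3.39 and 3.34 log2 RPKM in shNT, 2.91 and 2.92 with shCENPA1 and 2.77 and 2.84 with shCENPA2. All 4 libraries of the shRNAs against CENPA lay well below both shNT libraries. CDKN2C fell by 0.45 with shCENPA1 (SE 0.10, interval -0.66 to -0.23, limma adjusted p = 0.0233) and by 0.56 with shCENPA2 (SE 0.10, interval -0.78 to -0.34, limma adjusted p = 0.00372). These are decreases of 26.7% and 32.1%, and the shRNAs differed from each other by -0.11 (interval -0.33 to 0.11, limma adjusted p = 0.674). In the fits without 1 shNT or shCENPA1 library the difference with shCENPA1 was -0.47 to -0.42 and did not pass, at limma adjusted p-values of 0.222 and 0.21 without shNT replicates 1 and 2 and of 0.0718 and 0.0967 without shCENPA1 replicates 1 and 2. With shCENPA2 the call was lost without shNT replicate 1 (-0.53, limma adjusted p = 0.0544).

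CDKN2D, the gene of p19, was at 3.73 and 3.61 log2 RPKM in shNT, 3.25 and 3.48 with shCENPA1 and 3.53 and 3.26 with shCENPA2. All 4 libraries lay below shNT, but libraries of 1 group were up to 0.28 apart. The difference was -0.30 with shCENPA1 (SE 0.12, interval -0.58 to -0.02, limma adjusted p = 0.198) and -0.27 with shCENPA2 (SE 0.12, interval -0.56 to 0.01, limma adjusted p = 0.166). The intervals reach down to changes of -33.2% and -31.9%.

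CDKN3, the phosphatase, was at 4.14 and 4.16 log2 RPKM in shNT, 2.74 and 2.90 with shCENPA1 and 2.57 and 2.68 with shCENPA2. The lower shNT library lay above the highest shCENPA1 library by 1.24 and above the highest shCENPA2 library by 1.45, while libraries of 1 group differed by at most 0.16. CDKN3 fell by 60.2% with shCENPA1 (log2 fold change -1.33, SE 0.10, interval -1.56 to -1.10, limma adjusted p = 0.00015) and by 65.2% with shCENPA2 (log2 fold change -1.52, SE 0.10, interval -1.76 to -1.29, limma adjusted p = 2.1e-05). It passed in all 21 alternative settings with each shRNA, at adjusted p-values up to 0.0067 and 0.000977. By log2 fold change, 101 of the 14624 genes (0.691%) were lower with shCENPA1, and 262 (1.79%) were lower with shCENPA2. Between the shRNAs CDKN3 differed by -0.20 (interval -0.43 to 0.04, limma adjusted p = 0.466).

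**Figure D3:**
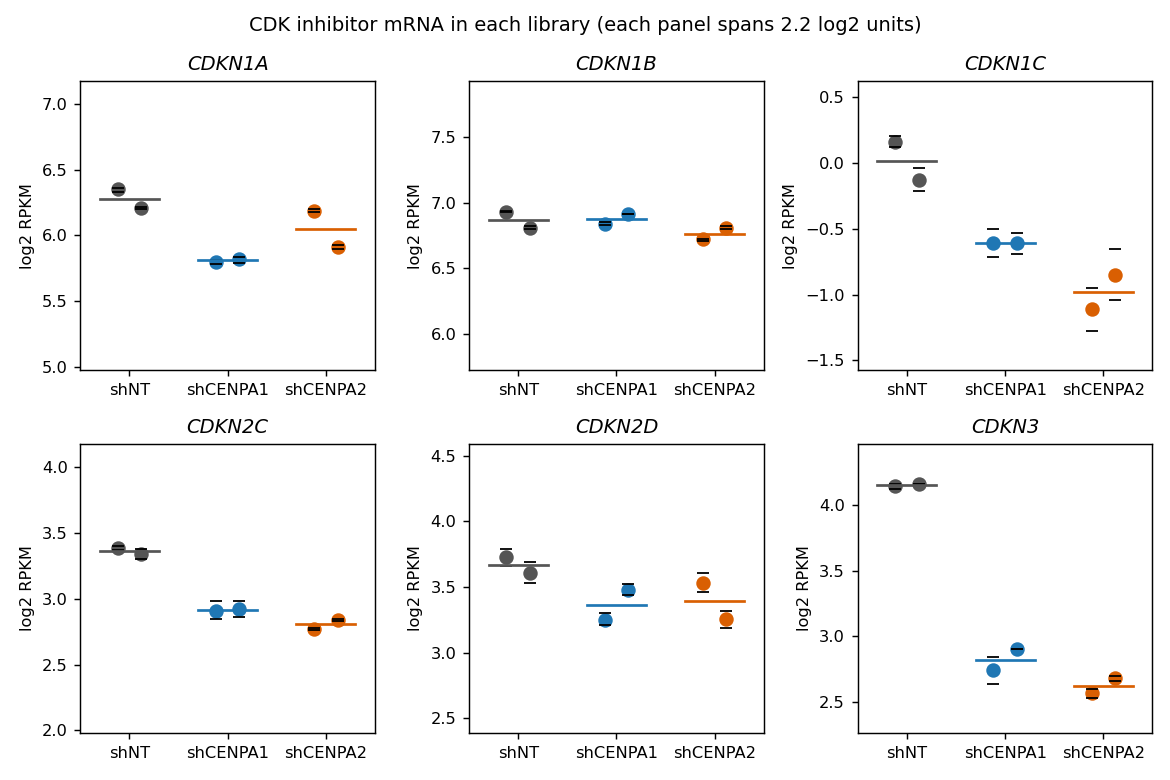
Log2 RPKM of the 6 genes by shRNA, with each panel spanning the same range of log2 units. Points are libraries (mean of both lanes), short black dashes are lanes 7 and 8, and horizontal lines are group means. CDKN3 shows the widest gap between shNT and the other libraries, and CDKN1B shows none with shCENPA1.

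With shCENPA1, 3 of the 6 genes fell (CDKN1A, CDKN2C and CDKN3) and 0 rose, where 4.45% of all genes tested fell and 2.69% rose. With shCENPA2, 3 of 6 fell (CDKN1C, CDKN2C and CDKN3) and 0 rose, beside 10.5% and 8.05% of all genes. With an estimated correlation of lanes 2 fell with shCENPA2, without CDKN1C. The comparisons share the shNT libraries and are not independent of each other. CDKN2C and CDKN3 fell with both, as did 4.13% of all genes. A log2 fold change beyond 1 together with a passing p was reached by 1 gene, CDKN3, in each comparison, beside 1.83% of all genes called lower with shCENPA1 and 4.45% with shCENPA2. In direction alone, 5 of 6 genes had both shCENPA1 libraries below both shNT libraries (all genes 27.1%) and 6 of 6 had both shCENPA2 libraries below (all genes 31%), with CDKN1B lying below by 0.0042. For 2 libraries against 2, the smallest two-sided p of an exact permutation test is 0.33. Between shCENPA2 and shCENPA1, 0 of 6 genes passed in limma, where 1.42% of all genes did, and 1 (CDKN1A, limma unadjusted p = 0.0491) was under 0.05 before adjustment, which no permutation of 2 libraries against 2 could reach. Within lane 7 and within lane 8 alone, 3 genes fell with each shRNA. In these fits 956 and 969 of all genes passed in either direction with shCENPA1, and 2478 and 2560 with shCENPA2. Both lanes hold the same libraries, so they are not separate evidence.

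**Figure D4:**
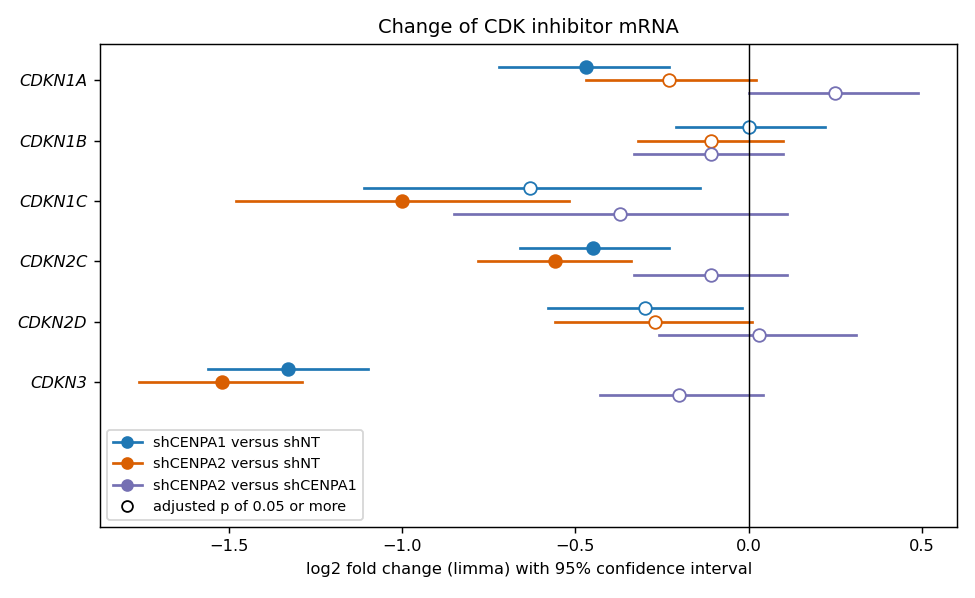
Log2 fold change of the 6 genes with 95% confidence intervals from limma, for each shRNA against shNT and for the shRNAs against each other. Filled points had an adjusted p under 0.05. CDKN3 lies furthest below 0, at -1.33 and -1.52, and no point for the shRNAs against each other is filled.

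The genes whose pattern over the 6 libraries was most like that of each CDK inhibitor were found by the root mean square difference of log2 RPKM after centring on the shNT mean. For CDKN3 they were CCNB2 (0.045), a mitotic B-type cyclin, RAD51AP1 (0.059), a factor of homologous recombination, and KIF4A (0.080), a mitotic kinesin. For CDKN2C they were RBBP8 (0.030), a DNA end resection factor, ERI1 (0.043), an exonuclease that acts on histone mRNA, and ERI2 (0.047). The nearest genes to CDKN1A were ENTPD2 (0.088), RUFY3 (0.093) and MARCH1 (0.097), and those to CDKN1C were ZNF257 (0.082), AF131215.2 (0.083) and TMEM97 (0.091). Genes near CDKN1B were SLC39A8 (0.024) and PPIL4 (0.024), and those nearest to CDKN2D were RP11-440L14.1 (0.058), GRIN1 (0.063) and TMEM109 (0.065). These are likenesses over 6 libraries that share their groups and are given without a test.

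The lists that follow are to be read beside the shares of all genes that passed, 4.45% lower and 2.69% higher with shCENPA1 and 10.5% lower and 8.05% higher with shCENPA2. These lists were also chosen with earlier results of these data known. Of 14 cyclins, kinases and kinase subunits tested, 9 fell with each shRNA and 0 rose, with a median log2 fold change of -0.65 and -0.91 beside 0.00 and 0.01 for all genes. CDK2, the kinase restrained by CIP/KIP proteins and by CDKN3, fell with both (-0.70 with shCENPA1 and -1.0 with shCENPA2, limma adjusted p = 0.00106 and 6.2e-05). CDK1, the mitotic kinase, fell as well (-1.16 and -1.66, limma adjusted p = 0.000191 and 9.87e-06). The INK4 targets CDK4 (0.04 and -0.16) and CDK6 (0.09 and 0.42) did not pass with either shRNA (limma adjusted p = 0.869 and 0.31 for CDK4, and 0.764 and 0.0758 for CDK6). With voom on the recovered reads 1 gene of the list rather than 0, CDK6, passed as higher with shCENPA2. The D-type cyclin CCND1 (-0.60 and -0.67) and the E-type cyclin CCNE2 (-0.97 and -1.38) fell. So did CCNA2 (-1.28 and -1.63) and CCNB2 (-1.28 and -1.57), cyclins of later phases. Not every cyclin fell. CCND3 (0.02 and 0.04), also D-type, and CCNE1 (-0.13 and 0.17), also E-type, did not pass with either shRNA. The same held for the B-type cyclin CCNB3 (0.51 and 0.11). CCND3, CCNE1 and CCNB3 are named after their values were seen.

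Enzymes that set CDK phosphorylation were tested for 8 genes, of which 5 fell with each shRNA and 0 rose (median -0.82 and -0.94). CDKN3, which removes the activating phosphate from CDK2, is not in this list. The activating phosphatases CDC25C (-1.31 and -1.44) and CDC25A (-1.07 and -1.20) fell, as did CDC25B (-0.69 and -0.68). The inhibitory kinases WEE1 (-0.95 and -1.38) and PKMYT1 (-1.02 and -1.65) fell as well, so that the list held both activators and inhibitors of CDKs. The 3 genes of the CDK-activating kinase (CDK7, CCNH and MNAT1) had differences of -0.09 to 0.15 and did not pass. CDC25B, WEE1, PKMYT1, CDK7, CCNH and MNAT1 are named after their values were seen.

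Among 10 other proteins that restrain CDKs, 1 fell with each shRNA and 1 rose with shCENPA2, near the shares of all genes with shCENPA2 (10.5% and 8.05%), and the medians were -0.04 and -0.06. The gene was RBL1, the pocket protein p107, at -0.64 and -0.73 (limma adjusted p = 0.0394 and 0.011). CDK2AP1, a CDK2-binding protein named after its values were seen, rose with shCENPA2 by 0.43 (limma adjusted p = 0.0419) and was at 0.13 with shCENPA1 (0.587).

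The list of ligases that mark the CIP/KIP proteins for degradation, which includes subunits, cofactors and PCNA, held 14 genes. Of these, 5 fell with each shRNA, 0 rose with shCENPA1 and 1 rose with shCENPA2 (medians -0.07 and -0.10). SKP2, the receptor for phosphorylated p27, fell (-0.57 and -0.76, limma adjusted p = 0.00647 and 0.000572), as did its cofactor CKS1B (-0.50 and -0.81). DTL, the receptor that recognises p21 on PCNA, fell (-1.30 and -1.71), and so did PCNA (-0.89 and -1.25) and CDC20, an activator of the anaphase-promoting complex (-0.90 and -1.48). UBAC1, a subunit of a ligase for p27, rose by 0.31 with shCENPA2 (limma adjusted p = 0.0419). With voom on the recovered reads 2 rather than 1 of the 14 genes rose with shCENPA2. CKS1B, PCNA and UBAC1 are named after their values were seen. CKS1B is also counted in the list of cyclins, kinases and kinase subunits. The mRNA data do not measure the p21 or p27 protein.

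Of 20 transcription regulators of CDK inhibitor genes, 3 fell with shCENPA1 (EZH2, KLF6 and MYC) and 0 rose, and with shCENPA2 5 fell (these 3, VDR and HES1) and 1 (KLF4) rose (median -0.13 with each), beside 4.45% and 10.5% of all genes lower and 8.05% higher with shCENPA2. EZH2, the Polycomb methyltransferase, fell by 0.73 with each shRNA, and KLF6, an activator of CDKN1A, fell too (-0.63 and -0.67). MYC, a repressor of CDKN1A, fell with shCENPA1 (-0.35, limma adjusted p = 0.0489) and with shCENPA2 (-1.18, 3.66e-05). VDR was at -0.63 with shCENPA1 (0.0845) and -0.98 with shCENPA2 (0.0064), HES1 at -0.46 (0.0587) and -1.07 (0.00039), and KLF4 at 0.30 (0.14) and 0.36 (0.046). With median-centred libraries 2 rather than 3 of these genes fell with shCENPA1. MYC, VDR, HES1 and KLF4 are named after their values were seen.

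The p53 targets other than CDKN1A were 25 genes. With shCENPA1 3 rose and 1 fell (median -0.05), and with shCENPA2 4 rose and 3 fell (median 0.05), and the sign of the median differs between the shRNAs. The counts lower are near the shares of all genes, 4.45% and 10.5%, and those higher stand beside 2.69% and 8.05%. GDF15, a stress-induced cytokine, rose by 1.08 and 1.79 (limma adjusted p = 0.000447 and 1.27e-05), SESN2 by 0.68 and 0.85, and the death receptor gene TNFRSF10B by 0.60 and 0.79. TP53I3 rose with shCENPA2 (0.75, limma adjusted p = 0.0321) and was at 0.44 with shCENPA1 (0.25). FAS fell with shCENPA1 (-0.58, limma adjusted p = 0.04) and was at -0.46 with shCENPA2 (0.0505). BTG2 (-0.42), DDB2 (-0.67) and TP53INP1 (-0.44) fell with shCENPA2. MDM2, the p53 ligase, was at -0.18 and -0.20 and did not pass (0.279 and 0.155). TNFRSF10B, TP53I3, FAS, BTG2, DDB2 and TP53INP1 are named after their values were seen. CDKN1A, at -0.47 and -0.23, lay on the other side of 0 from the 3 targets that rose with both shRNAs. It lay on the same side as 14 of the 25 targets with shCENPA1 and 11 with shCENPA2. After quantile normalization 0 rather than 1 of the 25 fell with shCENPA1 and 4 rather than 3 with shCENPA2, and with voom 5 rather than 4 rose with shCENPA2.

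Downstream of the CDKs, the RB, E2F and DREAM genes held 20 tested members, of which 7 fell with shCENPA1 and 8 with shCENPA2, while 0 and 1 (TFDP2, 0.39, limma adjusted p = 0.045, named after its values were seen) rose. The medians were -0.29 and -0.31. With voom on the recovered reads 8 rather than 7 fell with shCENPA1. The repressor E2Fs E2F8 (-1.53 and -1.88) and E2F7 (-1.44 and -1.63), the activator E2F1 (-1.05 and -1.41) and FOXM1 (-1.13 and -1.51), a driver of G2/M genes, fell. RB1 was at -0.25 and -0.23 and did not pass (limma adjusted p = 0.188 and 0.159). RBL1, among the genes that fell with each shRNA, is also counted in the list of other proteins that restrain CDKs. All 13 proliferation markers, of which PCNA, CDC20 and CCNB1 are also in the lists above, fell with each shRNA, with medians of -1.11 and -1.48, among them MKI67 (-1.40 and -1.66) and TOP2A (-1.34 and -1.71). The fold changes of CDKN3, -1.33 and -1.52, lay within the range of these markers, and those of CDKN2C, -0.45 and -0.56, lay nearer 0 than any of them. The part of these genes' change in the levels of CDKN3 and CDKN2C was not tested.

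CDKN1C was set beside its neighbours in the imprinted region of chromosome 11p15, of which 9 of 15 listed genes were tested. With shCENPA1 1 fell (ASCL2) and 0 rose (median -0.01), and with shCENPA2 2 fell (ASCL2 and PHLDA2) and 2 rose (CARS and SLC22A18, median -0.12), where 10.5% of all genes fell and 8.05% rose. With shCENPA1, 1 gene rather than 0 rose with median-centred libraries, with quantile normalization and with voom. The shCENPA1 median in these settings was 0.01, 0.02 and -0.01. ASCL2, a transcription factor, fell (-1.47 and -2.14, limma adjusted p = 0.0414 and 0.00339) and rested on 48 to 315 reads per library. PHLDA2 was at -0.27 with shCENPA1 (0.35) and fell by 0.67 with shCENPA2 (0.0145). CARS (0.55, 0.00863) and SLC22A18 (0.49, 0.0498) rose with shCENPA2 and are named after their values were seen.

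The fits that leave out 1 library are smaller, and the lone library of a group is assumed to vary like the other groups. Of the related genes named that passed, 12 of 31 with shCENPA1 did not pass in every fit that left out 1 library (CCND1, SKP2, RBL1, EZH2, KLF6, SESN2, E2F7, ASCL2, FAS, MYC, PKMYT1 and CKS1B), with limma adjusted p-values up to 0.375. With shCENPA2 this held for 15 of 43 (CCND1, PHLDA2, RBL1, KLF6, BTG2, DDB2, TP53I3, TP53INP1, VDR, KLF4, CDK2AP1, UBAC1, TFDP2, CARS and SLC22A18), with limma adjusted p-values up to 0.404. CDK1, CDK2, CCNE2, the CDC25 phosphatases, DTL, CDC20, FOXM1, E2F1, E2F8, MKI67 and TOP2A passed in each of these fits with both shRNAs.

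**Figure D5:**
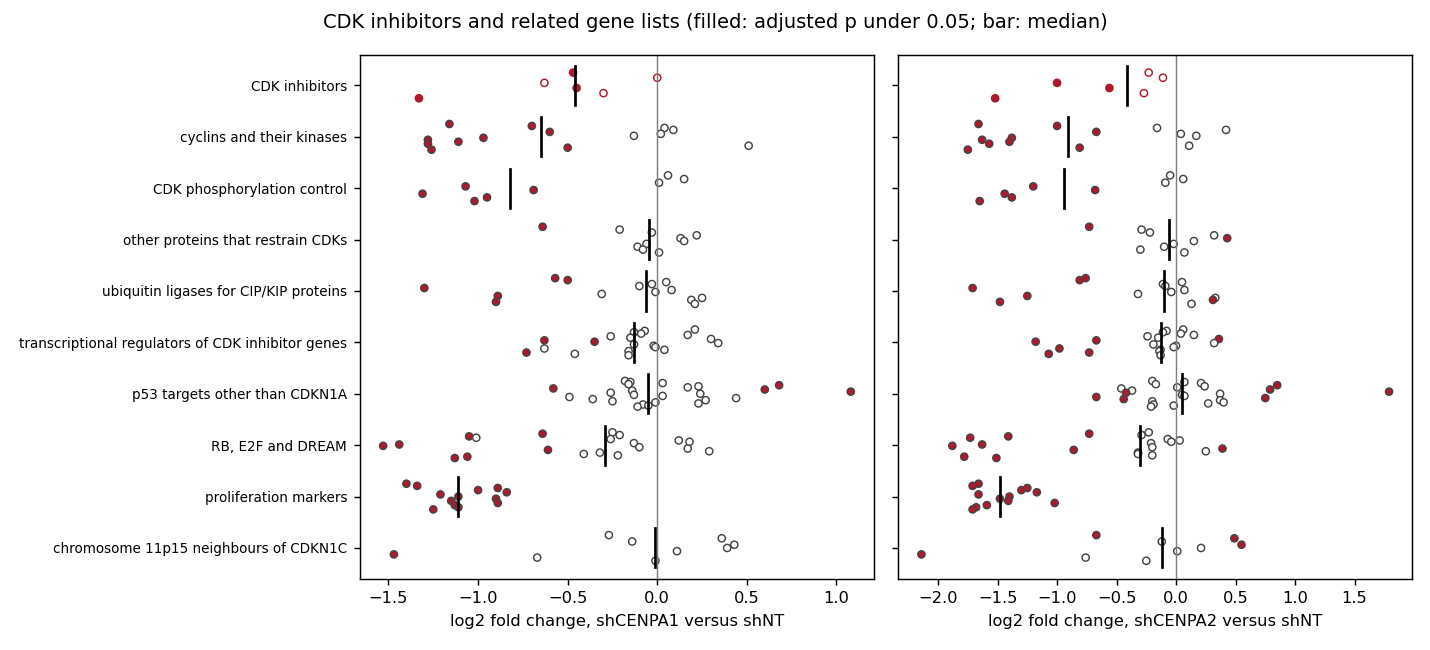
Log2 fold change against shNT for the CDK inhibitors and 9 related gene lists, shCENPA1 on the left and shCENPA2 on the right. Each circle is a gene, filled where the limma adjusted p was under 0.05, and vertical bars are list medians. All 13 proliferation markers are filled and below 0, whereas the CDK inhibitors spread from 0.00 to -1.33 with shCENPA1 and from -0.11 to -1.52 with shCENPA2.

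By the GENCODE 44 annotation of GRCh38, the assembly the authors used, the genes lie on 6 chromosomes: CDKN1A at chr6:36676460-36687337 (plus), CDKN1B at chr12:12685498-12722369 (plus), CDKN1C at chr11:2883213-2885775 (minus), CDKN2C at chr1:50960745-50974634 (plus), CDKN2D at chr19:10566460-10569059 (minus) and CDKN3 at chr14:54396849-54420218 (plus). The genes that fell with both shRNAs, on chromosomes 14 and 1, do not neighbour each other.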

How the data were processed

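RNA-seq of 22Rv1 cells was compared between shNT, shCENPA1 and shCENPA2, with 2 libraries per group. According to the methods and labels, the authors trimmed reads with Trim Galore, used STAR for alignment to hg38, HTSeq for counting and edgeR for the analysis, with no versions given in the sources used here. The authors deposited log2 RPKM per run, with a prior of 0.25 reads on average, which draws low values together. The labels number 4 runs per group, which are 2 libraries in lanes 7 and 8.

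Lanes were averaged, and limma 3.58.1 in R 4.3.3 (lmFit, eBayes with a variance trend) was fitted to the 6 libraries in one model for 14624 of 14828 genes, those averaging -3 log2 RPKM or more, with Benjamini-Hochberg adjustment over all of them. No constant was added. A gene passed at an adjusted p under 0.05 and was called when its log2 fold change was also beyond 1. The steps between values gave back whole reads for 14828 of 14828 genes, at most 4.8e-08 from a whole number, and gave the depth. Both steps were tested on simulated data. Intervals are at 95%.

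Named were the 6 genes, CENPA, a fixed set of partners, and from each of 9 lists up to 2 genes per direction that passed with both shRNAs by the largest smaller change. Likeness used genes averaging 0 log2 RPKM or more, up to 3 per gene. The members and lists were chosen with earlier results of these data known. Of the genes so named, KCNQ1OT1 was not tested, and 2 genes are not reported here. Alternatives were single lanes, lanes as replicates, a replicate block, other filters, constants and scalings, limma without the trend, voom on recovered reads, fits of only the groups compared and each library left out. The same-numbered libraries correlated at -0.06, -0.1 and -0.15 in their deviations, so numbers were not taken to pair them.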

Additional observations from a re-analysis of the deposited data

Results flagged for a closer look

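The shRNAs differed from each other in 4 of the genes named, by the limma contrast of shCENPA2 with shCENPA1. CENPA was lower with shCENPA2 by a log2 difference of -0.98 (adjusted p = 0.0209), and CDK1 by -0.50 (adjusted p = 0.0364). MYC was lower with shCENPA2 by -0.84 (adjusted p = 0.0027), and GDF15 was higher by 0.71 (adjusted p = 0.0142). Without shCENPA1 replicate 2 none of the 4 passed, at adjusted p-values of 0.214 for CENPA, 0.267 for CDK1, 0.063 for MYC and 0.188 for GDF15, the highest over their alternatives. The lowest were 1.77e-05, 1.42e-05, 4.37e-08 and 1.5e-05.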

How the results depend on the processing

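Over the alternatives, CDKN3 stayed past the threshold with each shRNA, and the other members that fell kept their direction. With lanes as 4 replicates per group, which treats runs of 1 library as independent, 5 members passed with each shRNA and 2 between the shRNAs, and 5405, 7089 and 3319 of all genes passed for shCENPA1 against shNT, shCENPA2 against shNT and shCENPA2 against shCENPA1. Newly past were CDKN1C (-0.63) and CDKN2D (-0.30) with shCENPA1, CDKN1A (-0.23) and CDKN2D (-0.27) with shCENPA2, and CDKN1A (0.25) and CDKN3 (-0.20) between them. With an estimated correlation of lanes, CDKN1C with shCENPA2 was lost (-1.0, adjusted p = 0.0677), and 1862 genes passed with shCENPA1 and 519 between the shRNAs. Without the variance trend 1 member passed with shCENPA1, CDKN1A (-0.47, 0.103) and CDKN2C (-0.45, 0.0554) being lost, and 138 genes passed between the shRNAs. With a log2 fold change beyond 1 also required, 1 member passed with each shRNA, CDKN1A (-0.47), CDKN2C (-0.45 and -0.56) and CDKN1C (-1.0, just short of the limit) being lost, and 388, 897 and 107 of all genes passed.

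Leaving out each library in turn gave 1 to 3 members with each shRNA, and 395 to 1410, 1358 to 2594 and 27 to 371 of all genes. Ranges were -0.54 to -0.41 for CDKN1A with shCENPA1, -0.47 to -0.42 for CDKN2C with shCENPA1 and -0.59 to -0.52 with shCENPA2, and -1.14 to -0.85 for CDKN1C with shCENPA2. Signs turned for differences near 0: CDKN1B with shCENPA1 was -0.01 in lane 8, -0.05 after quantile normalization and -0.06 to 0.06 with a library left out. CDKN2D between the shRNAs was -0.00 in lane 8 and -0.11 to 0.16 with a library left out, and with shCENPA1 CDK4 was -0.08 to 0.15 and CDK6 -0.07 to 0.25. The cause was not tested.

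The library number as a replicate block left 3, 3 and 0 members and 868, 2375 and 160 genes past the threshold and changed no member's call. A crossed block, chosen after seeing the data, gave 3, 3 and 0 members and 389 genes between the shRNAs. CDKN1C has no value at a minimum mean log2 RPKM of 0. Over all genes, the chi-square per gene was 26.5 to 80.1 between the 2 libraries of a group and 1.24 to 1.31 between lanes. What limits the precision for each of the 6 genes was not tested. CDKN1C had only 99 reads in its lowest library.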
